A study of Mus musculus with 6 samples.

Results

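The late steps of cholesterol synthesis, from squalene to cholesterol, was followed through 9 enzyme genes that were chosen by name: Sqle, Lss, Cyp51, Msmo1, Nsdhl, Hsd17b7, Ebp, Sc5d and Dhcr7. All 9 were among the 12824 genes of the deposited table, and all 9 were among the 12686 genes tested. The 6 mice were C57BL/6 adults of 2 months, and RNA was taken from the whole heart of each. In 3 knockout (KO) mice both alleles of Srsf4, a splicing factor of the SR protein family, carried loxP sites and Cre was driven by Nkx2.5 (SRSF4flox/flox;NKx2.5-Cre), and 3 control mice carried the floxed alleles without Cre (SRSF4flox/flox). The Nkx2.5 driver acts in cells of the cardiac lineage, so other cells of the heart can keep the gene. The presence of Cre and the deletion of Srsf4 cannot be told apart in this design.

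Cholesterol is made in the endoplasmic reticulum. Early enzymes build squalene from acetyl-CoA through mevalonate, and late enzymes oxidise squalene, close it to lanosterol, remove its extra methyl groups and shift or reduce its double bonds. Most genes of both parts are known targets of the transcription factor SREBP2, which is released from the membrane when sterols are low. Hsd17b7 encodes the 3-keto reductase of the demethylation complex, in which Msmo1 and Nsdhl catalyse the preceding reactions. The same enzyme is also known to reduce estrone to estradiol.

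The members were chosen with results of this comparison known, in which Hsd17b7 was low in the KO hearts, so their values are given as a description and without a p-value. Hsd17b7 was 8.32-fold lower in the KO hearts. Of the other 8 enzymes, Sc5d and Cyp51 were 1.39-fold and 1.34-fold lower, Lss was lower by a smaller margin, and Nsdhl and Msmo1 were higher, Nsdhl by 1.23-fold, each with no overlap between the groups. Sqle, Dhcr7 and Ebp overlapped between the groups. Levels are CPM, the counts of a gene scaled to library size with TMM factors, and the library totals ranged from 59810975 to 74941323 counts per heart. Srsf4 was at 22.1, 23.5 and 23.7 CPM in the controls and at 10.8, 10.1 and 8.39 CPM in the KO hearts, so the libraries followed their labels. The KO libraries carry one library code prefix and the controls another, so a batch of libraries cannot be told apart from genotype.

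The promoter sequences of the 3 members that were lower by the edgeR threshold are shown first, because Hsd17b7 starts next to a non-coding gene that was low in the same hearts. The RefSeq table gave promoter windows for 8 of the 9 members on GRCm38.p6, Sqle being the exception. The stretches run 5′ to 3′ on the strand of the gene and end before the first annotated base of the transcript. They lie at chr1:169969242-169969455 (minus strand), chr5:4104747-4104947 (minus strand) and chr9:42264301-42264550 (minus strand). Capitals mark CCAAT (or ATTGG, its complement), GGGCGG (or CCGCCC) and TCACCTCA.
Hsd17b7: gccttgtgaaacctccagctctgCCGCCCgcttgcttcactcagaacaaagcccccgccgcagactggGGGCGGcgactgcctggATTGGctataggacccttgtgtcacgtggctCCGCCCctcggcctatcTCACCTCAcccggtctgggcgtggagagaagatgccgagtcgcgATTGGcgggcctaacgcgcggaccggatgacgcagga
Cyp51: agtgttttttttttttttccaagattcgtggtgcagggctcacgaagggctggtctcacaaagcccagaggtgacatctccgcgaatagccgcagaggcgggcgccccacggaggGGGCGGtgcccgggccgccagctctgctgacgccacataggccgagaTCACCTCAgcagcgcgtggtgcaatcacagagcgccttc
Sc5d: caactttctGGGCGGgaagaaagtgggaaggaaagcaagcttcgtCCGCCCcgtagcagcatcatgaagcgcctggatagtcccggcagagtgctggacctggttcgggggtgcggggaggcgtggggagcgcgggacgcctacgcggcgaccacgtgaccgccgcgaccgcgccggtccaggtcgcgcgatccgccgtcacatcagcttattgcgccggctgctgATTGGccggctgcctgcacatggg

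In the 250 bases before the RefSeq start, CCAAT, the core of the box bound by the SREBP partner NF-Y, was found on either strand in all 8 members with a window. In Cyp51 it lay 29 bases before that start, past the end of the printed stretch. Hsd17b7 had a further match 12 bases before its start, also past the end of its printed stretch. The motif was present in 40.3% of the 9444 table genes with a window and in 33.8% of all 32851 windows. GGGCGG, the core of the GC box, was also found in all 8, against 63.8% of the table genes and 32.7% of all windows. The sterol regulatory element core TCACNCCAC was in none of the 8 windows and in 1.24% of the table genes (1.05% of all windows). Apart from TCACCTCA below, forms that depart from this sequence were not searched, so a window without it may still hold an element. TCACCTCA reads as the start of TCACNCCAC with a T in place of a C. TCACCTCA, chosen after the sequences were seen, was shared by Hsd17b7 and Cyp51 and was present in 1.06% of table genes and 0.947% of all windows. It lay 117 bases before the RefSeq start of Hsd17b7 and 88 bases before that of Cyp51. These matches describe letters in the window and were not tested for binding.

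Sqle, squalene epoxidase, catalyses the first oxygen-dependent step. It had 0.554, 0.598 and 0.654 CPM in the controls and 0.329, 0.605 and 0.713 CPM in KO hearts 1 to 3. These levels rest on 38 to 43 counts per control and 23 to 48 counts per KO heart, and the KO range enclosed that of the controls. The log2 fold change of KO over control was -0.13 with a standard error (SE) of 0.30, and it became 0.14 without KO 1. Lss, lanosterol synthase, closes the ring system. It had 1.46, 1.53 and 1.61 CPM in the controls and 1.35, 1.26 and 1.32 CPM in the KO hearts, so every KO heart lay below every control by a small margin (log2 fold change -0.23, SE 0.15).

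Cyp51 removes a methyl group from lanosterol. It stood at 7.74, 7.83 and 7.52 CPM in the controls and at 6.09, 5.63 and 5.49 CPM in the KO hearts. Replicates lay close together and the groups were apart, with a log2 fold change of -0.42 (SE 0.09). Cyp51 and Akap9 overlap by 166 bases on opposite strands. Lss likewise overlaps the antisense gene 4930483K19Rik, which is not in the deposited table, by 11268 bases. Whether the counting used strand is not stated in the sources at hand.

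The next 3 enzymes take off the remaining pair of methyl groups in repeated cycles, and they did not move together. Msmo1, the methylsterol oxidase that opens each cycle, had 3.69, 3.71 and 3.79 CPM in the controls and 4.11, 4.41 and 4.54 CPM in the KO hearts. Nsdhl, the decarboxylating dehydrogenase of the cycle, had 3.55, 3.35 and 3.60 CPM in the controls and 3.84, 4.59 and 4.50 CPM in the KO hearts. For both genes every KO heart lay above every control, with log2 fold changes of 0.22 (SE 0.10) and 0.30 (SE 0.12). Hsd17b7, which closes the cycle by reducing the ketone, had 8.17, 10.2 and 10.3 CPM in the controls and 0.874, 1.46 and 1.11 CPM in the KO hearts. The counts behind these levels were 634, 646 and 647 against 61, 94 and 75, so the low level rests on at least 61 counts in each KO heart. Its log2 fold change was -3.06 (SE 0.20), which ranked 16 by size of the fall among the 12686 genes tested. Per kilobase of exon, controls had more Hsd17b7 (1.87 CPM) than Nsdhl (1.23 CPM) or Msmo1 (0.607 CPM). KO hearts had less Hsd17b7 (0.225 CPM) than Nsdhl (1.51 CPM) or Msmo1 (0.709 CPM). Per kilobase of the longest coding transcript, the control means of Hsd17b7 and Msmo1 were closer, at 2.07 ± 0.259 and 1.83 ± 0.0272 CPM (SD, n = 3).

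Ebp, the sterol isomerase that moves a double bond within the ring, had 8.24, 7.72 and 9.60 CPM in the controls and 8.996, 6.87 and 7.32 CPM in the KO hearts. KO 1 lay among the controls and the other two KO hearts below them (log2 fold change -0.14, SE 0.14). Sc5d, the desaturase of the following step, had 8.66, 8.82 and 8.67 CPM in the controls and 6.00, 6.24 and 6.61 CPM in the KO hearts. The groups were far apart for the spread within them, with a log2 fold change of -0.47 (SE 0.09). Dhcr7, the reductase at the end of this branch, had 4.50, 5.33 and 4.65 CPM in the controls and 4.84, 4.10 and 4.16 CPM in the KO hearts (log2 fold change -0.14, SE 0.12). Again KO 1 lay among the controls.

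**Figure D1:**
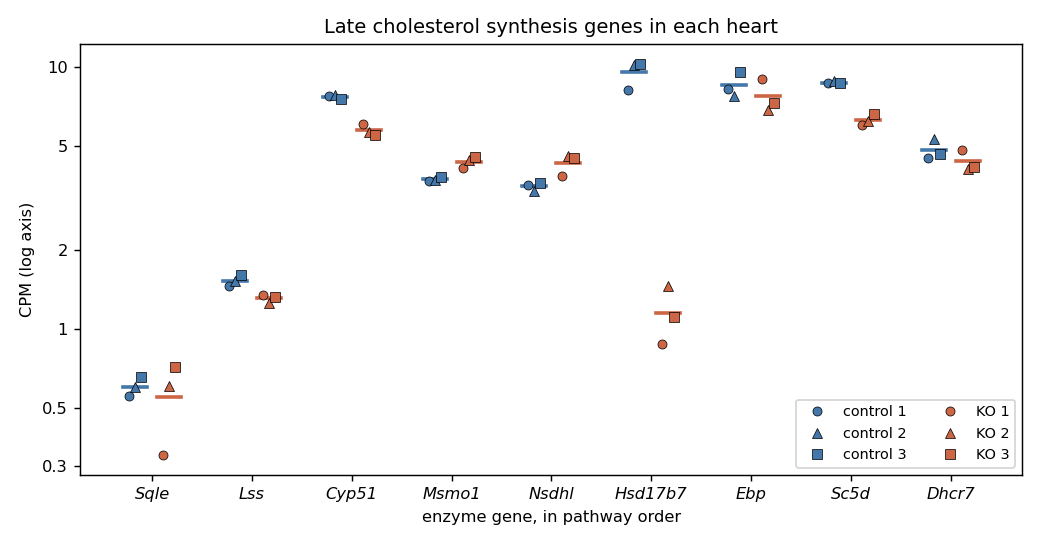
CPM of the 9 enzyme genes in each of the 6 hearts, on a log axis, with genes in pathway order; symbols mark single hearts and horizontal bars the mean of 3. The KO hearts sit at 0.874 to 1.46 CPM for Hsd17b7 against 8.17 to 10.3 CPM in the controls, and within 1.39-fold of the controls in mean for the other 8.

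By the threshold of 0.05 on edgeR's adjusted p, 3 of the 9 members were called, Hsd17b7, Sc5d and Cyp51, all lower in the KO hearts. The background was 6.03% of all genes tested, with 2.74% lower and 3.29% higher. Of the 9, 4 were lower and 2 higher with no overlap between groups, where 27.2% of all genes tested had groups that did not overlap, 13.5% lower and 13.7% higher. The contrast was used to choose the members, so nothing is read from these shares. The median log2 fold change of the 9 was -0.14, beside -0.0032 over all genes tested. Hsd17b7 was the member with an adjusted p below 0.05 in the authors' deposited table, as did 6.43% of its 12824 genes. The 8 enzymes other than Hsd17b7 summed to 39.1 ± 0.883 CPM in controls and 34.6 ± 0.926 CPM in KO hearts (SD, n = 3 each). Sc5d (mean 8.72 CPM in controls, 6.28 in KO hearts) and Cyp51 (7.70 and 5.74) made up nearly all of this net difference. Among the rest, the rises of Nsdhl and Msmo1 nearly offset the smaller falls of Lss, Sqle, Dhcr7 and Ebp.

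Leaving out each heart in turn kept the sign of 8 of the 9 members, the exception being Sqle. Each of these 6 fits called Hsd17b7, with log2 fold changes from -3.26 to -2.89. Cyp51 and Sc5d kept their call in 1 of them, without KO 1, where Nsdhl was called too. Their log2 fold changes hardly moved, from -0.47 to -0.39 and from -0.51 to -0.44. The fits share the hearts by which the members were chosen, so these calls are a description and no independent support. KO 1 stood apart in other genes as well. Summed over 8 fibroblast markers, hearts ranged from 313 to 677 CPM in the KO group and from 540 to 583 CPM in the controls, KO 1 being the lowest.

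**Figure D2:**
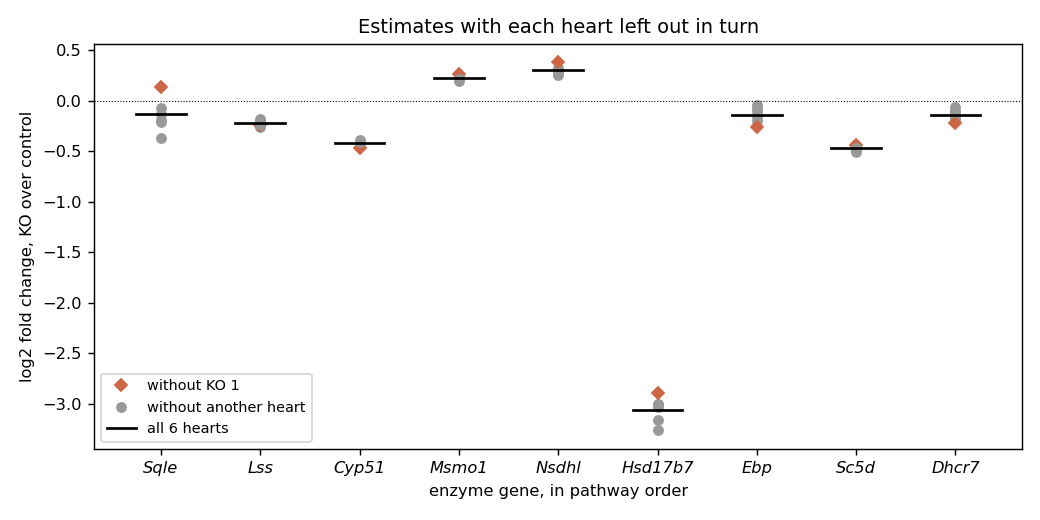
Log2 fold change of KO over control for each enzyme gene with all 6 hearts (black line) and with each heart left out in turn (points; diamonds are the fits without KO 1). Hsd17b7 stays between -3.26 and -2.89, and Sqle is the gene whose points fall on both sides of 0.

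Levels between genes were compared per length, as CPM per kilobase of merged annotated exons. In the control hearts Ebp was highest at 3.69 ± 0.419 CPM per kilobase (SD, n = 3). Hsd17b7 (1.87 ± 0.234) and Sc5d (1.79 ± 0.0185) followed and overlapped in range, and Cyp51 came next at 1.74 ± 0.0358. Below these stood Nsdhl at 1.23 ± 0.0464, Dhcr7 at 0.830 ± 0.0761, Msmo1 at 0.607 ± 0.00905, Lss at 0.142 ± 0.00710 and Sqle at 0.109 ± 0.00896 CPM per kilobase. The range of Hsd17b7 enclosed those of Sc5d and Cyp51, and other neighbours in this order did not overlap in range. The median of the genes tested was 2.52 CPM per kilobase, so 8 of the 9 lay below it. In the KO hearts Hsd17b7 was at 0.225 ± 0.0576 CPM per kilobase, in the seventh place of the 9. Per kilobase of the longest coding transcript Ebp, Hsd17b7, Dhcr7, Lss and Sqle kept their places. Cyp51 moved from the fourth to the third place, Sc5d moved from the third to the fifth and Nsdhl from the fifth to the seventh. Msmo1 moved from the seventh to the fourth, above Nsdhl (1.83 against 1.61 CPM per kilobase), since its merged exons are 6144 bases and that transcript 2044 bases long.

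Among the genes that make squalene no change was called. All 9 early enzyme genes were measured, and none passed edgeR's test in either direction; none had an unadjusted p under 0.05, and DESeq2 and limma-trend called none. Their median log2 fold change was -0.03. The smallest p belonged to Fdps, farnesyl diphosphate synthase, at 12.1 ± 1.29 CPM in KO hearts against 10.9 ± 0.766 CPM (edgeR adjusted p = 0.443), and to Fdft1, squalene synthase, at 30.9 ± 5.32 against 33.8 ± 2.11 CPM (edgeR adjusted p = 0.628). Without KO 1, Fdft1 alone of the 9 was called and lower.

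Of 6 further genes of the late steps 4 were measured and none passed edgeR's test, while 3 had an unadjusted p under 0.05, DESeq2 called 1 and limma-trend none. Lbr, the lamin B receptor, which also has sterol reductase activity, had 17.2, 16.9 and 14.2 CPM in the controls and 10.8, 13.5 and 12.3 CPM in the KO hearts (log2 fold change -0.40, SE 0.12, edgeR adjusted p = 0.1). 0610007P14Rik, the mouse gene for the scaffold of the demethylation complex known from yeast as Erg28, had 2.99 ± 0.0042 CPM in the controls and 2.36 ± 0.186 CPM in the KO hearts (log2 fold change -0.34, SE 0.12, edgeR adjusted p = 0.158). In both genes every KO heart lay below every control. That held for 3 of the 4 measured genes, beside 13.5% of all genes tested, and the median log2 fold change of the 4 was -0.37.

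**Figure D3:**
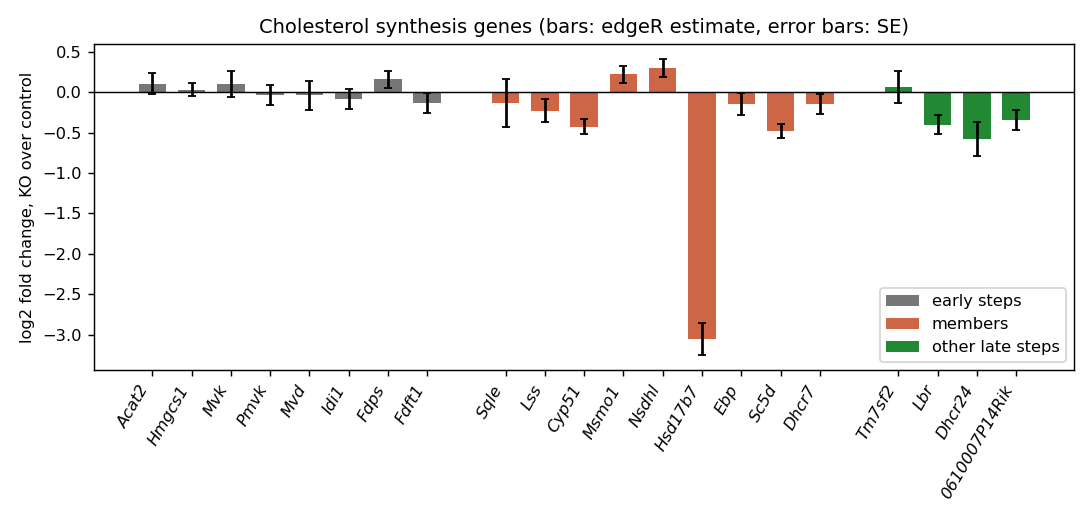
Log2 fold change of KO over control (bars, with SE) for 8 of the 9 early cholesterol synthesis genes, the 9 members in pathway order and 4 other late genes. The 8 early genes plotted lie between -0.13 and 0.16, Msmo1 and Nsdhl lie above it beside Hsd17b7 at -3.06, and Lbr and 0610007P14Rik are at -0.40 and -0.34.

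Genes around the pathway were taken as 6 further lists, named by function and drawn up with earlier results of these hearts known. Together with the early and other late genes they hold 88 tested genes, of which 4 rose and 2 fell, or 6.82% against the background of 6.03%. Groups did not overlap, higher and lower, for 5 and 1 of 14 genes of SREBP activation and 6 and 0 of 16 on other mevalonate branches. The counts were 3 and 4 of 18 for sterol transport, 0 and 2 of 9 for efflux and 1 and 1 of 14 for lipogenic genes. For the other 17-beta hydroxysteroid dehydrogenases they were 1 and 0 of 4, beside 13.7% and 13.5% of all genes tested. Srebf2, the gene of the main regulator of cholesterol synthesis, had 13.6 ± 0.551 CPM in the controls and 12.9 ± 1.51 CPM in the KO hearts (edgeR adjusted p = 0.747). Its paralogue Srebf1 had 20.7 ± 0.121 and 21.5 ± 1.58 CPM (edgeR adjusted p = 0.777). Insig1, which holds SREBP in the endoplasmic reticulum and is itself a sterol-responsive gene, had 9.81 ± 0.225 and 11.0 ± 1.167 CPM (edgeR adjusted p = 0.385). Of 14 genes of SREBP activation and feedback 1 rose. This was Erlin2, a protein of the endoplasmic reticulum membrane, at 15.3, 15.3 and 14.97 CPM in the controls and 19.0, 21.4 and 20.6 CPM in the KO hearts (log2 fold change 0.42, SE 0.08, edgeR adjusted p = 0.0235). Its call was lost when counts were scaled to library totals without TMM factors and whenever a heart other than KO 1 was left out, and the edgeR, DESeq2 and limma-trend adjusted p ranged from 0.00016 to 0.126.

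Of 18 measured genes of sterol uptake and transport 2 fell. Gramd1b, which encodes a carrier of cholesterol from the plasma membrane to the endoplasmic reticulum, had 31.1, 30.8 and 24.3 CPM in the controls and 11.1, 12.6 and 14.1 CPM in the KO hearts. Every KO heart lay far below the lowest control, the gene was 2.28-fold lower (log2 fold change -1.19, SE 0.13, edgeR adjusted p = 0.00256), and its call held whichever heart was left out. Npc1, the exporter of cholesterol from lysosomes, had 33.8, 42.1 and 31.2 CPM in the controls and 21.6, 24.3 and 25.5 CPM in the KO hearts (log2 fold change -0.58, SE 0.13, edgeR adjusted p = 0.0416). The groups did not overlap, and the call held in 1 of the 6 fits that left out a heart, the one without KO 1.

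Of 9 genes of sterol efflux and oxysterols none passed edgeR's test, 2 had an unadjusted p under 0.05, and DESeq2 and limma-trend called none. They were Ch25h and Cyp27a1, both sterol hydroxylases that form oxysterols, at 0.120 ± 0.0315 against 0.287 ± 0.0580 CPM and at 9.45 ± 0.852 against 11.3 ± 0.443 CPM (KO against control; edgeR adjusted p = 0.0772 and 0.182). Ch25h was at 0.0859, 0.124 and 0.148 CPM in the KO hearts, a level so low that its difference rests on few counts. Of 14 lipogenic genes known as SREBP1 targets 1 rose. Thrsp, a regulator of fatty acid synthesis, had 15.1, 13.3 and 15.02 CPM in the controls and 40.4, 55.4 and 39.8 CPM in the KO hearts. It was 3.12-fold higher with no overlap (log2 fold change 1.64, SE 0.14, edgeR adjusted p = 0.000881), and its call held whichever heart was left out.

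Of 16 genes on the other branches of the mevalonate pathway 2 rose. Nus1, a subunit of the prenyltransferase for dolichol, had 40.9, 41.2 and 38.7 CPM in the controls and 50.02, 49.9 and 55.7 CPM in the KO hearts (log2 fold change 0.37, SE 0.08, edgeR adjusted p = 0.0359). Coq5, a methyltransferase of ubiquinone synthesis, had 91.6, 93.1 and 95.2 CPM in the controls and 123, 115 and 112 CPM in the KO hearts (log2 fold change 0.32, SE 0.07, edgeR adjusted p = 0.0491). Both kept their call without KO 1 and lost it without any other heart and with scaling to library totals. Of 11 other genes of the 17-beta hydroxysteroid dehydrogenase family 4 were measured and none passed edgeR's test, with 1 at an unadjusted p under 0.05 and none called by DESeq2 or limma-trend. Hsd17b4, the peroxisomal bifunctional enzyme, had 85.5 ± 2.27 CPM in KO hearts against 73.7 ± 5.78 CPM, and Hsd17b11, a lipid droplet enzyme, had 21.5 ± 4.19 against 26.2 ± 3.87 CPM (edgeR adjusted p = 0.186 and 0.368).

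**Figure D4:**
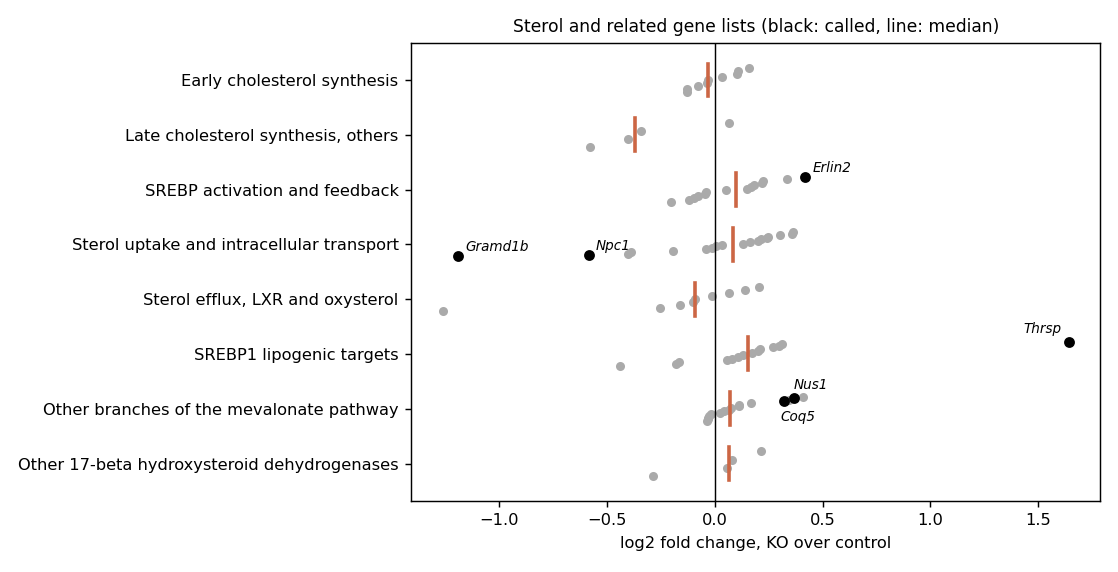
Log2 fold change of KO over control for the tested genes of 8 lists of sterol and related genes, one point per gene, with called genes in black and the list median as a line. The 6 called genes are Gramd1b at -1.19, Npc1 at -0.58, Erlin2 at 0.42, Thrsp at 1.64, Nus1 at 0.37 and Coq5 at 0.32.

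Without KO 1, 25 of these 88 genes were called, beside 22.8% of all genes tested in that fit. Sterol transport then had 6 higher and 3 lower of 18, with Gramd1b and Npc1 among the 3 lower. In whole hearts, fewer cells of a type and less RNA per cell cannot be told apart. The 8 cardiomyocyte markers summed to 62321 to 64293 CPM in the controls and 59591 to 65015 CPM in the KO hearts. The 8 markers of smooth muscle and pericytes summed to 622 to 717 CPM in the controls and 452 to 565 CPM in the KO hearts, and Acta2 was called among them, lower. Rgs5 is 1 of these 8, with means of 403 CPM in the controls and 312 CPM in the KO hearts. It thus carries much of this sum, and it also lies near Hsd17b7 on chromosome 1. Of 8 adipocyte markers, Fabp4, which capillaries express too, was the 1 in the table. Of 6 steroidogenic markers Star was the 1 in the table, at 0.702 to 1.09 CPM in KO hearts and 0.849 to 1.03 CPM in controls. The part of other cell types in the level of Hsd17b7 was not tested.

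Hsd17b7 lies on chromosome 1 at 169949535 to 169969241 (GRCm38, minus strand). The start of 3110045C21Rik, a non-coding gene on the opposite strand, is separated from it by 167 bases, and the first 47 bases of the Hsd17b7 stretch printed above lie within it. This neighbour had 14, 21 and 16 counts in the controls and 3, 0 and 0 counts in KO hearts 1 to 3. The ratio of KO to control over all hearts was 0.0595 (95% interval 0.0119 to 0.184, exact binomial on counts over library sizes, covering counting error alone), and the edgeR adjusted p was 0.0289. Its call was lost when any heart other than KO 1 was left out (edgeR adjusted p up to 0.104). The gene also overlaps Ddr2 in position on the other strand, and reads of the pair may not be told apart without strand.

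Of the 5 tested genes next to Hsd17b7 at larger coordinates 3 were called, all lower. Beside 3110045C21Rik these were Uap1, an enzyme of nucleotide sugar synthesis, and Nos1ap, an adaptor of neuronal nitric oxide synthase. Uap1 had 28.4, 28.6 and 29.3 CPM in the controls and 17.4, 20.1 and 21.8 CPM in the KO hearts (log2 fold change -0.54, SE 0.10, edgeR adjusted p = 0.0199). Nos1ap had 9.31, 8.78 and 6.71 CPM in the controls and 3.15, 3.49 and 3.59 CPM in the KO hearts (log2 fold change -1.28, SE 0.15, edgeR adjusted p = 0.00279). In both, each KO heart lay below each control. The call of Nos1ap held whichever heart was left out, and that of Uap1 was lost without any control or without KO 2 (edgeR adjusted p up to 0.0889). Uhmk1, a kinase gene, had log2 fold change -0.55 and did not pass (edgeR adjusted p = 0.146), and the collagen receptor gene Ddr2 had -0.15 (edgeR adjusted p = 0.757).

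At smaller coordinates none of the 5 nearest tested genes passed edgeR's test. Of these, 3 had an unadjusted p under 0.05, DESeq2 called 1 and limma-trend none. The sets of 5 cover unlike spans. Gene starts lay at -2575 to -222 kb from that of Hsd17b7 on this side, and at 0.168 to 621 kb at larger coordinates. The regulators of G protein signalling Rgs4 and Rgs5 had log2 fold changes of 0.42 and -0.37, the retinoid receptor gene Rxrg of 0.28 and Mgst3, a microsomal glutathione transferase, of -0.13 (edgeR adjusted p = 0.194, 0.115, 0.171 and 0.634). Within 2000 kb on either side, 36 other genes were tested, of which 10 were called lower and 1, Olfml2b, higher, beside the background of 6.03%. Most of the 36, and all of those called, lay at larger coordinates. This region was already known from earlier results of these hearts to hold many called genes, so its share is not independent support.

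**Figure D5:**
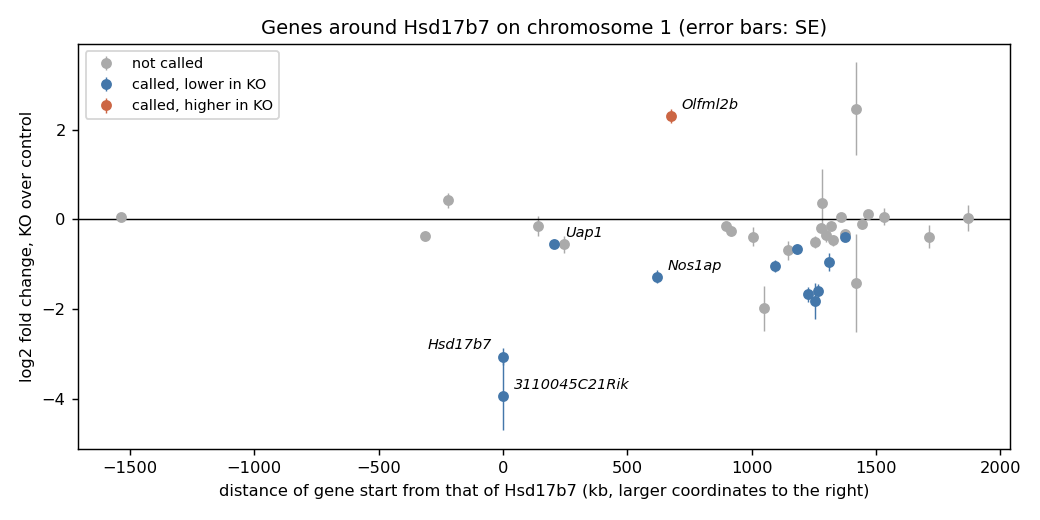
Log2 fold change of KO over control (points, with SE) for tested genes within 2000 kb of Hsd17b7 on chromosome 1, against the distance between gene starts. Hsd17b7 and 3110045C21Rik share the position 0 at -3.06 and -3.93, and 3 genes to the left are not called.

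Among 10304 named genes whose mean log2 CPM reached 1, the level of Hsd17b7 over the 6 hearts was most like that of Colec11, Pdlim3, Ncoa4, Tor1aip2 and Cacna1h, with Pearson's r of 0.997, 0.997, 0.996, 0.996 and 0.995. All 5 were called and lower in the KO hearts, so the likeness mostly reads the difference between the groups, and 400 genes had an r above 0.9. The mean of the other 8 members was most like Arhgdib, Tceal1, Zfp112, Cd14 and Tmem35 (r of 0.981, 0.979, 0.978, 0.977 and 0.977). For this profile 130 genes had an r above 0.9. None of the 5 was called by edgeR, but Arhgdib lay near the threshold (edgeR adjusted p = 0.0519) and DESeq2 called it (DESeq2 adjusted p = 0.00483). In these 5 genes too every KO heart lay below every control, with log2 fold changes from -0.52 to -0.11.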

How the data were processed

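Poly(A)-selected RNA from 6 hearts was analysed from 1 gene table. Per the file headers it holds raw values; these are whole numbers, and since the submitters' processing notes name RSEM 1.17, they were taken as the authors' estimated counts, rounded before they were deposited. The notes also name cutadapt, Picard, edgeR and GRCm38; the aligner, annotation and use of strand are not stated in the sources used here, and genes were selected before deposit. The authors also deposited normalized values and their means (a signal: counts of a library times 1 factor), a log2 fold change, a signed fold change (a score) and p-values with adjusted values.

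Counts of 12686 genes, after edgeR's filter removed 138, were fitted with edgeR 4.0.16 in R 4.3.3 (TMM, robust quasi-likelihood, 6 hearts, no covariate, Benjamini-Hochberg over all genes); SE is the absolute log2 fold change over the root of F. The common biological coefficient of variation was 13.6%. DESeq2 1.42.0 and limma-trend (limma 3.58.1) were alternatives. Lengths and positions came from GENCODE M21, promoters from RefSeq. No gene of the table was near-identical to a member (blastn 2.17.0, at least 90% identity over 200 bases and 50% of the shorter transcript). Hearts with the same number did not deviate together (r of -0.0639, 0.151 and -0.256 for numbers 1 to 3), so no pairing was used. Named were all members, the called genes of each list (at most 4, or else the 2 with the smallest p), the 5 nearest genes on each side of Hsd17b7, the 5 most alike, and Srsf4, Srebf1, Srebf2 and Insig1; a few genes that this rule takes are not reported here. Members and lists were chosen with earlier results of these data known.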

Additional observations from a re-analysis of the deposited data

How the results depend on the processing

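The number of called genes was 765 in edgeR's fit. It was 1163 when scaled to library totals without TMM factors (total counts only), 1468 with DESeq2, 505 with the replicate block and 291 at a threshold of 0.01, and 288 to 2896 with a heart left out; the highest was without KO 1. With total counts only, the median over all genes shifted to -0.14 (log2) and 23.6% of the calls were higher in place of 54.5%; Nsdhl and Msmo1 were then at 0.16 and 0.08 and Sc5d and Cyp51 at -0.61 and -0.56. Of the 9 members 3 were called, against 1, Hsd17b7, with the replicate block and at 0.01, and 1 to 4 with a heart left out. Of the genes of the 8 lists 6 were called, against 2 with the replicate block and at 0.01, and 2 to 25 with a heart left out. RLE factors, limma-trend and both other filters kept these 3 counts within 1.5 times. The block rests only on shared numbers, since no heart number pairs the groups in the labels and same-numbered hearts did not deviate together; of the KO hearts, KO 2 was the one whose deviations correlated best with the control of its own number. Among the named genes that are no members, the calls of Erlin2, Npc1, Nus1, Coq5, Tor1aip2 and 3110045C21Rik (edgeR adjusted p = 0.0572) were lost with the block.

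Some log2 fold changes of genes that were not called crossed 0, and the cause was not tested. With a heart left out, Srebf2 ranged from -0.13 to 0.020 (positive without KO 1), Ddr2 from -0.31 to 0.082 (positive without KO 1) and Srebf1 from -0.0084 (without KO 2) to 0.096. With total counts only, Srebf1 was at -0.086. Summing members with near-identical genes was not run, because none was found. Sqle, at 23 to 48 counts a heart, is the member that depth limits most.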
